A study of Homo sapiens with 23 samples.

Results

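Expression of 10 genes of the integrated stress response was described in Caco-2 and HepG2 cells: ATF4, ATF3, DDIT3, TRIB3, CHAC1, ASNS, SLC7A11, SESN2, DDIT4 and PPP1R15A. They were taken by gene symbol from the 60564 gene identifiers listed for each library, and each symbol matched 1 identifier. The measurement was mRNA-seq of 23 libraries, 11 from Caco-2, a human colorectal adenocarcinoma line, and 12 from HepG2, a human hepatocellular carcinoma line. Both lines were grown in the iGLC platform, a microfluidic chip with valves and a pump whose 2 kinds of chamber, gut and liver, could be closed off or connected. The groups were mono-culture without FFAs (control), mono-culture with FFAs, co-culture without FFAs (control) and co-culture with FFAs, in each line. FFAs stand for a mix of palmitic and oleic acids at a total of 1 mM, given for 1 day. There were 3 libraries in each group, except for 2 of Caco-2 cells in co-culture without FFAs. In co-culture the other line sat in the connected chamber and the 2 lines were harvested separately with trypsin, so each co-culture library was taken from 1 kind of chamber. Both are immortal tumour lines and stand in for gut and liver cells only in part. The paper's reporting summary calls the replicates biological, and its methods give 2 or more independent experiments for mRNA-seq. The labels do not tie a library to an experiment, chip, culture or day. The p-values therefore measure the spread between these libraries, part of which may be technical.

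The integrated stress response is the programme that follows phosphorylation of the initiation factor eIF2alpha by kinases that sense endoplasmic reticulum stress, lack of amino acids, lack of haem or viral RNA. General translation falls while translation of the transcription factor ATF4 rises, and ATF4 with its partners then switches on genes of amino acid supply, redox balance and, when the stress lasts, cell death. In liver cells the pathway is known to respond to saturated fatty acids, to lack of amino acids and to misfolded secretory proteins. Much of the control of ATF4 itself lies in translation, which mRNA levels do not show.

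The genes lie on 9 chromosomes of GRCh38 and are all protein-coding in the GENCODE annotation. ATF4 (ENSG00000128272) is at chr22:39519695-39522683 on the plus strand and ATF3 (ENSG00000162772) at chr1:212565334-212620777 on the plus strand. DDIT3 (ENSG00000175197) is at chr12:57516588-57521737 on the minus strand and TRIB3 (ENSG00000101255) at chr20:362835-397559 on the plus strand. CHAC1 (ENSG00000128965) is at chr15:40952962-40956512 on the plus strand and ASNS (ENSG00000070669) at chr7:97851677-97872542 on the minus strand. SLC7A11 (ENSG00000151012) is at chr4:138164097-138242349 on the minus strand and SESN2 (ENSG00000130766) at chr1:28259518-28282491 on the plus strand. DDIT4 (ENSG00000168209) is at chr10:72273919-72276036 and PPP1R15A (ENSG00000087074) at chr19:48872212-48876059, both on the plus strand.

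The promoter stretches below are shown because they hold the letters by which ATF4 and its relatives are known to bind DNA, and they show which of the 10 genes carry them near their start. RefSeq windows of 300 bases on GRCh38, from 250 bases before a start to 50 after it, were held for 9 of the 10 genes (15 windows). The windows were searched on both strands for TGATGNAA, the core of the C/EBP-ATF response element to which ATF4 binds with a C/EBP partner, and for TGACGTCA, the cAMP response element bound by the ATF and CREB family. The 2 motifs share no full-length match. Capitals mark the motif in each stretch, printed 5′ to 3′ on the strand of the gene.
ATF3: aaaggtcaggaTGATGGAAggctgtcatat
CHAC1: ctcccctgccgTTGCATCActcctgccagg
ASNS: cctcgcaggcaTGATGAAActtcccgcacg
PPP1R15A: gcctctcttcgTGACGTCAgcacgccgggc
The ATF3 stretch lies at chr1:212565205-212565234 on the plus strand, in 1 of the 2 RefSeq windows of the gene. Its motif is 191 to 184 bases before the RefSeq start in that window and before each of the 10 GENCODE transcripts of the gene. The CHAC1 stretch lies at chr15:40953251-40953280 on the plus strand, with the motif on the other strand 209 to 202 bases before the start, and 1 of 3 GENCODE transcripts has an untranslated exon there. The ASNS stretch lies at chr7:97872458-97872487 on the minus strand, in 1 of the 2 RefSeq windows of the gene. Its motif is 68 to 61 bases before the RefSeq start in that window, inside an untranslated exon of 3 of 17 GENCODE transcripts. The PPP1R15A stretch lies at chr19:48872352-48872381 on the plus strand, with the cAMP response element 58 to 51 bases before the start and inside an untranslated exon of 1 of 5 GENCODE transcripts. The core TGATGNAA was present in 1270 of 35116 RefSeq windows (3.62%), or for 1217 of 27305 genes (4.46%), and TGACGTCA in 649 windows (1.85%). A match is a run of letters and no evidence of binding. ATF4, DDIT3, TRIB3, SESN2 and DDIT4 held neither motif in their windows, and SLC7A11 had no window.

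Each line carried its own markers. ALB, the serum albumin gene, was listed at 20460 to 33859 TPM in HepG2 and at 321 to 769 TPM in Caco-2, and CDH17, an intestinal cadherin, at 354 to 480 TPM in Caco-2 and at 0.05 to 2.75 TPM in HepG2. The 10 HepG2 markers summed to 40458 to 60697 TPM in HepG2 and to 2632 to 5050 TPM in Caco-2, and the 10 Caco-2 markers to 1236 to 1559 TPM in Caco-2 and to 165 to 260 TPM in HepG2. A pair of Caco-2 co-culture libraries stood apart on SPP1, a secreted phosphoprotein on the HepG2 list. It was at 19.6 TPM in replicate 1 of co-culture control and at 39.6 TPM in replicate 1 of co-culture with FFAs, at 0.17 to 1.04 TPM in the other 9 Caco-2 libraries and at 413 to 1188 TPM in HepG2. The HepG2 marker sum was 3984 and 4513 TPM in those 2 libraries, within the range of the other Caco-2 libraries, and ALB at 769 TPM was the highest of Caco-2 in the second of them. Results that use Caco-2 co-culture are therefore also given without both libraries, a choice made after seeing the data that leaves 1 library of co-culture control, assumed to vary like the other groups. HRG in both lines and CDX1 in both lines stayed at or near 0, so these markers do not tell the lines apart. LGALS4, KRT20 and TTR overlapped between the lines, with TTR at 227 to 342 TPM in Caco-2 and 232 to 649 TPM in HepG2. VIL1, at 153 to 244 TPM in HepG2, made up most of the Caco-2 marker sum there. In bulk RNA, fewer cells of one kind and less RNA per cell cannot be told apart. TPM, the unit of all levels given here, is the abundance of a gene's transcripts scaled for their length and to the same total in each library, and the depth behind the values is unknown because they hold no counts.

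None of the 10 genes was at 0 in any library, and their mean levels spanned more than 2 orders of magnitude in HepG2. In Caco-2 the mean TPM over 11 libraries fell in the order ATF4 at 335 ± 55.4 (SD), PPP1R15A at 211 ± 94.6, ASNS at 192 ± 70.9, TRIB3 at 189 ± 46.2, DDIT3 at 133 ± 25.2, DDIT4 at 107 ± 60.0, CHAC1 at 29.2 ± 15.6, SESN2 at 22.2 ± 6.70, ATF3 at 21.5 ± 15.2 and SLC7A11 at 7.81 ± 3.50. Neighbours in this order whose means differed by less than the larger of their SDs were PPP1R15A, ASNS and TRIB3, then DDIT3 and DDIT4, and then CHAC1, SESN2, ATF3 and SLC7A11. In HepG2 the mean TPM over 12 libraries fell in another order, with TRIB3 first at 589 ± 264, then ATF4 at 313 ± 79.5 and ASNS at 295 ± 104. DDIT4 at 68.5 ± 47.4, SESN2 at 45.6 ± 18.4, PPP1R15A at 37.3 ± 9.06, DDIT3 at 37.2 ± 10.4, SLC7A11 at 28.8 ± 16.1 and ATF3 at 14.9 ± 4.06 TPM followed, and each differed from its neighbour by less than the larger of their SDs, as did ATF4 and ASNS. CHAC1 was the lowest in HepG2, at 1.71 ± 1.18 TPM.

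**Figure D1:**
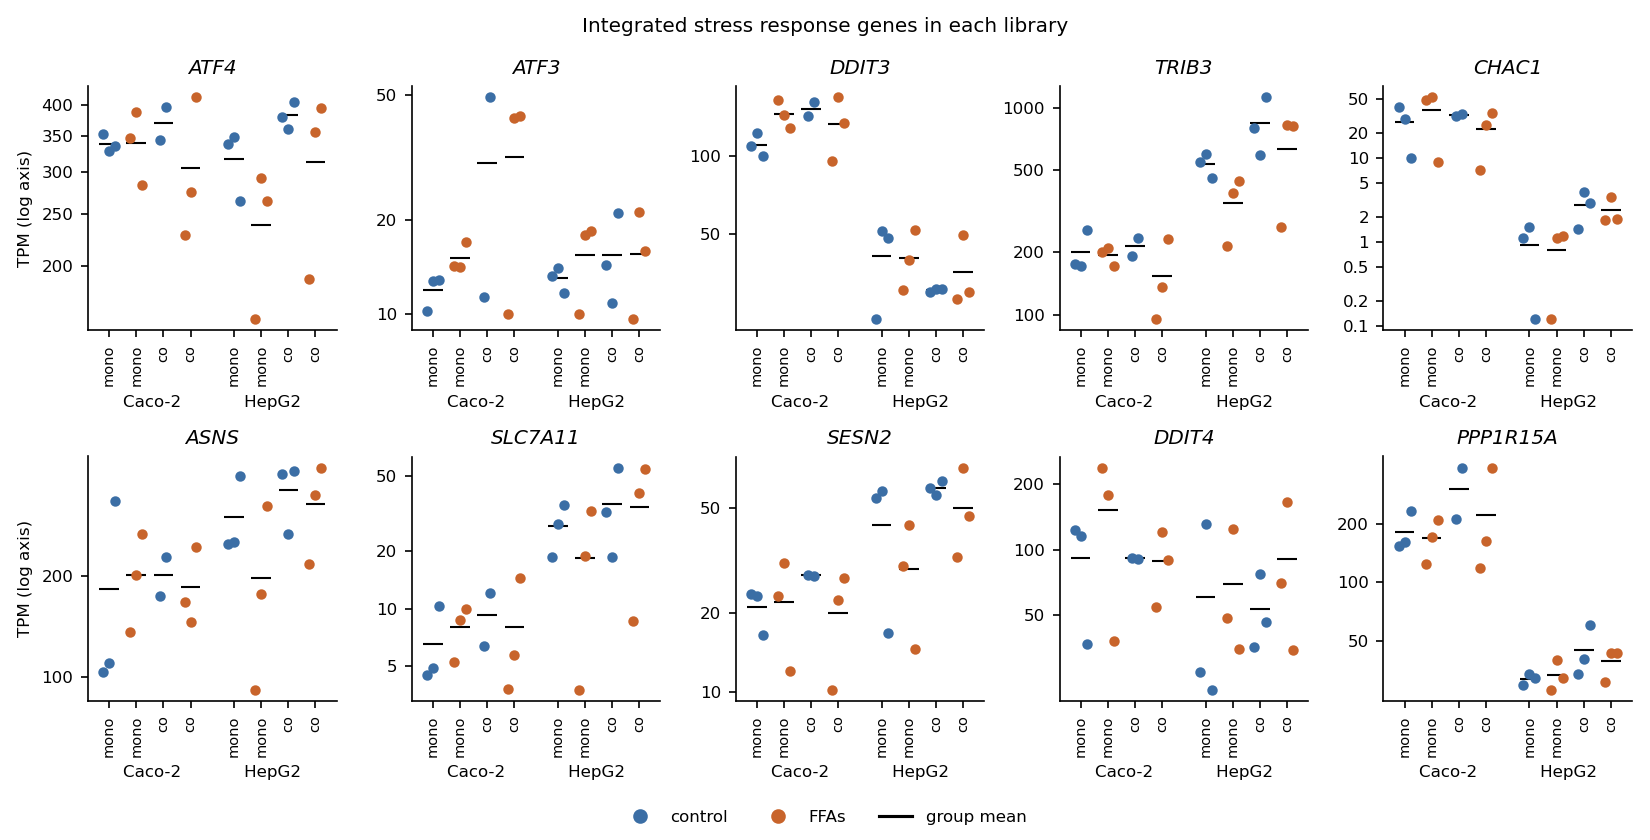
TPM of each gene in each library on a log axis, by line and culture (mono-culture and co-culture), with control libraries in blue, libraries with FFAs in orange and a bar at each group mean. Points of 1 group are often as far apart as the groups, as for SLC7A11 in HepG2 co-culture with FFAs at 8.58, 40.3 and 54.0 TPM, whereas DDIT3, CHAC1 and PPP1R15A of the 2 lines do not overlap.

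The libraries of 1 group differed more in these genes than in most others. The SD within groups, pooled over the 4 groups of a line on the log2(TPM + 1) scale, had a median over the 10 genes of 0.60 in Caco-2 and 0.55 in HepG2, against a median over all genes tested of 0.20 and 0.25. All 10 genes lay above the median SD of genes of like level (mean within 0.5 on the log2 scale) in both lines. In Caco-2, CHAC1 had the widest spread at 1.09, against a median of 0.18 for the 2393 genes of like level, and 99.9% of those genes had a lower SD. DDIT4 followed at 0.96 and ATF3 at 0.83, and DDIT3 at 0.25 and ATF4 at 0.27 had the narrowest spread. In HepG2, SLC7A11 at 1.09 and DDIT4 at 1.04 were the widest, and PPP1R15A at 0.29 was the narrowest, with 76.5% of its genes of like level below it. The genes were named with earlier results of these data known, and these shares are a description.

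**Figure D2:**
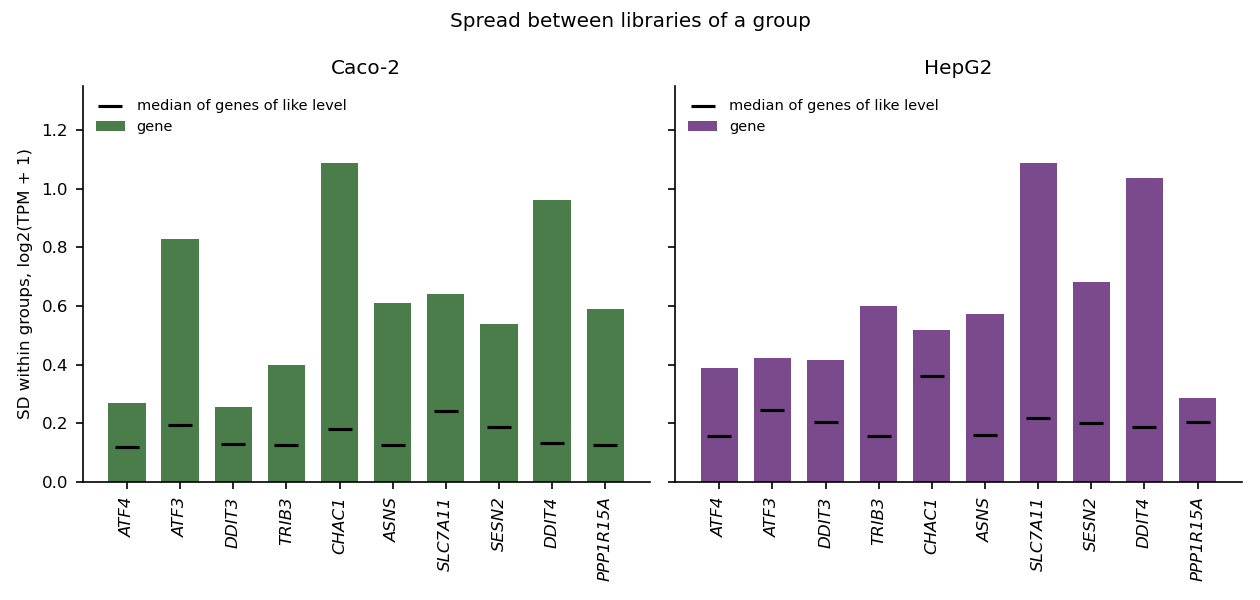
SD of log2(TPM + 1) between libraries of a group, pooled over the 4 groups of each line, for each gene (bars) and the median of all tested genes of like mean level (black marks). Every bar stands above its mark, and the tallest are CHAC1 at 1.09 in Caco-2 and SLC7A11 at 1.09 in HepG2.

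The low and high values fell on particular libraries. CHAC1, a glutathione-degrading enzyme and one of the most responsive ATF4 targets, was listed in Caco-2 at 40.5, 29.2 and 9.89 TPM in mono-culture control and at 49.4, 52.8 and 8.96 TPM in mono-culture with FFAs. In co-culture control it was at 31.4 and 33.2 TPM, and in co-culture with FFAs at 7.22, 24.6 and 34.2 TPM. The 3 libraries under 10 TPM were replicate 3 of both mono-culture groups and replicate 1 of co-culture with FFAs.
DDIT4, which encodes the mTORC1 inhibitor REDD1, was low in those same 3 libraries, at 37.0, 38.1 and 54.7 TPM, with the other 8 Caco-2 libraries at 90.2 to 238 TPM. SESN2, a leucine sensor that also restrains mTORC1, was at 16.5, 12.0 and 10.2 TPM there and at 22.4 to 30.9 TPM in the other 8. ASNS, asparagine synthetase, ran the other way in the mono-culture libraries: replicate 3 was at 333 TPM in control and 266 TPM with FFAs, against 103 and 110 TPM and 136 and 200 TPM in replicates 1 and 2.

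In HepG2 the low libraries for TRIB3, ATF4 and SLC7A11 were replicate 1 of both groups with FFAs. TRIB3, a pseudokinase that feeds back on ATF4 and on insulin signalling, was at 215 TPM in replicate 1 of mono-culture with FFAs and at 265 TPM in replicate 1 of co-culture with FFAs, with the other 10 libraries at 387 to 1125 TPM. ATF4 was at 159 and 189 TPM in those 2 libraries and at 264 to 405 TPM in the rest. SLC7A11, the light chain of the cystine and glutamate exchanger, was at 3.75 and 8.58 TPM there and at 18.7 to 55.1 TPM in the rest. The ASNS value of 91.6 TPM in replicate 1 of mono-culture with FFAs was the lowest in the line, and DDIT4 was not low in either library (48.6 and 70.7 TPM). The HepG2 marker sum was 40458 TPM or more in each HepG2 library, these included. SESN2 was lowest in replicate 3 of mono-culture with FFAs and of mono-culture control, at 14.5 and 16.8 TPM.

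**Figure D3:**
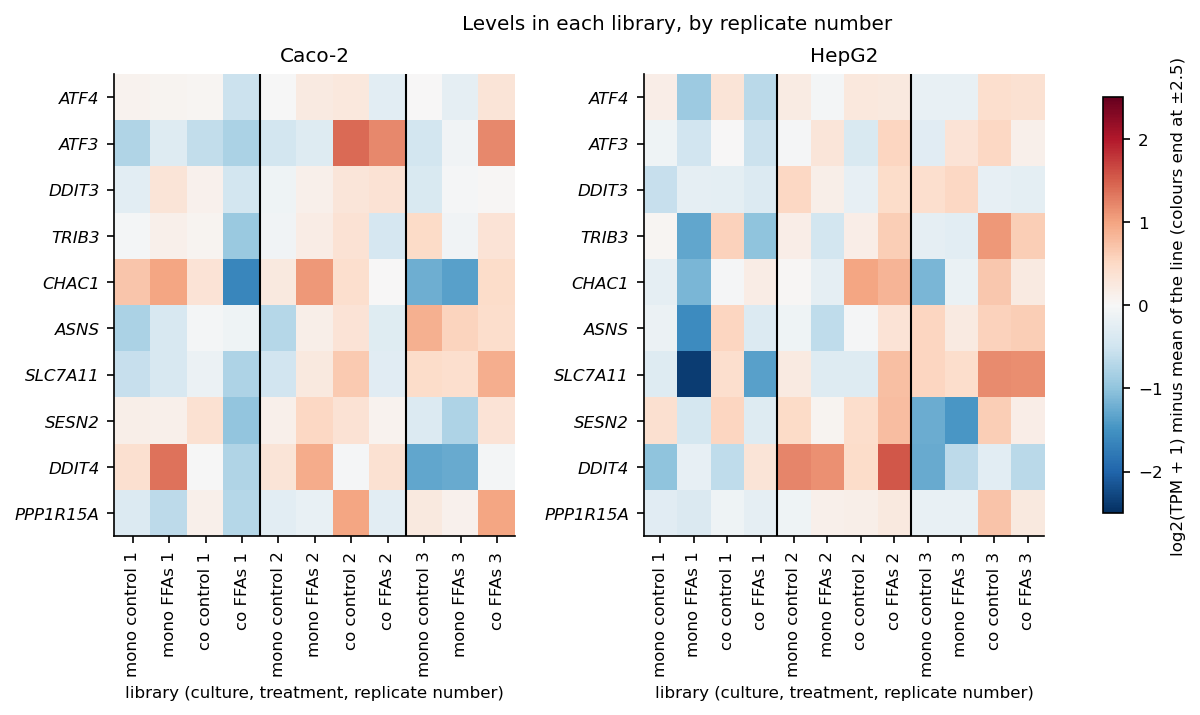
log2(TPM + 1) of each gene in each library minus the mean of that gene over the line (colour, ending at ±2.5), with libraries ordered by replicate number and black lines between numbers. In Caco-2, CHAC1, SESN2 and DDIT4 are blue in both mono-culture libraries of replicate 3 (CHAC1 at 9.89 and 8.96 TPM), and in HepG2, ATF4, TRIB3 and SLC7A11 are blue in both replicate 1 libraries with FFAs (TRIB3 at 215 and 265 TPM).

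The comparison with the most calls was that between the lines. On the log2(TPM + 1) scale and averaged over the 4 conditions, 7 of the 10 genes differed between Caco-2 and HepG2 at an adjusted p under 0.05 (limma, Benjamini-Hochberg over 16495 genes), of which 3 were higher and 4 lower in Caco-2. The background is high: 79.0% of all genes tested were called in this comparison, so 7 of 10 is no more than the share among all genes. The median difference over all genes was 0.24 (0.057 with median-of-ratios scaling, -0.0036 with quantile normalization). Relative to that median of 0.24, the differences were 3.17 for CHAC1, 2.20 for PPP1R15A, 1.62 for DDIT3, 0.48 for DDIT4, 0.098 for ATF3, -0.089 for ATF4, -0.83 for ASNS, -1.14 for SESN2, -1.76 for TRIB3 and -1.80 for SLC7A11. Without the 2 Caco-2 libraries with SPP1, the difference itself was 0.75 for ATF3 (0.33 with all libraries) and -0.53 for ASNS (-0.59 with all libraries).

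Among the transcription factors, ATF4 and ATF3 were not called and DDIT3 was. ATF4 was at 228, 344 and 413 TPM (lowest, median and highest of 11) in Caco-2 and at 159, 343 and 405 TPM (of 12) in HepG2. The ranges overlapped, with a log2 difference of 0.15 (95% interval -0.12 to 0.42, adjusted p = 0.304) that was 0.062 with quantile normalization and turned to -0.076 with median-of-ratios scaling. ATF3, a repressor and activator induced downstream of ATF4, was at 10.0, 14.1 and 49.3 TPM in Caco-2 and at 9.62, 14.2 and 21.2 TPM in HepG2, with a log2 difference of 0.33 (95% interval -0.18 to 0.85, adjusted p = 0.217). ATF3 passed the threshold without replicate 1 of Caco-2 co-culture control (adjusted p = 0.0263) and without replicate 1 of Caco-2 co-culture with FFAs (adjusted p = 0.0289).
DDIT3, which encodes the pro-apoptotic factor CHOP, was at 95.3, 133 and 168 TPM in Caco-2 and at 23.6, 30.9 and 51.9 TPM in HepG2, so the lines did not overlap. Its log2 difference was 1.86 (95% interval 1.57 to 2.14, adjusted p = 1.3e-10).

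CHAC1 showed the largest difference of the 10. It was at 7.22, 31.4 and 52.8 TPM in Caco-2 and at 0.12, 1.46 and 3.87 TPM in HepG2, with no overlap and a log2 difference of 3.41 (95% interval 2.74 to 4.07, adjusted p = 6.0e-09). The scale understates changes of low genes, and with a pseudocount of 0.1 the difference was 4.22. PPP1R15A, the regulatory subunit GADD34 that brings phosphatase to eIF2alpha and ends the response, was at 118, 172 and 390 TPM in Caco-2 and at 28.0, 33.6 and 60.6 TPM in HepG2. It did not overlap either, and its log2 difference was 2.44 (95% interval 2.08 to 2.80, adjusted p = 9.0e-11).
Of all genes tested, 42.7% had ranges over all libraries that did not overlap between the lines, against 3 of these 10. Genes known to rise within minutes of handling were set beside these. On the immediate-early and harvest-responsive list, 8 of 11 genes were called higher in Caco-2 (FOS at 3.48, EGR1 at 3.38, ZFP36 at 2.60, IER2 at 2.19, JUNB at 2.11, DUSP1 at 1.55, FOSB at 1.28 and JUN at 0.84) and IER3 lower (-0.54). Of all 16495 genes, 8216 were called higher and 4814 lower. The summed level of the 11 genes was 977 to 2741 TPM in Caco-2 and 323 to 740 TPM in HepG2. The part of these 11 genes in the PPP1R15A and DDIT3 differences was not tested.

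The 4 genes called lower in Caco-2 were TRIB3, SLC7A11, SESN2 and ASNS. TRIB3 was at 95.2, 192 and 255 TPM in Caco-2 and at 215, 572 and 1125 TPM in HepG2, with a log2 difference of -1.52 (95% interval -1.93 to -1.11, adjusted p = 6.5e-07). SLC7A11 was at 3.8, 6.39 and 14.5 TPM in Caco-2 and at 3.75, 29.9 and 55.1 TPM in HepG2, with a log2 difference of -1.56 (95% interval -2.28 to -0.85, adjusted p = 0.00035). The SLC7A11 ranges overlapped only through the 2 low HepG2 libraries with FFAs named above, while TRIB3 overlapped through 1 of them.
SESN2 was at 10.2, 23.2 and 30.9 TPM in Caco-2 and at 14.5, 50.6 and 71.4 TPM in HepG2, with a log2 difference of -0.90 (95% interval -1.39 to -0.41, adjusted p = 0.0017). ASNS was at 103, 175 and 333 TPM in Caco-2 and at 91.6, 294 and 419 TPM in HepG2, with a log2 difference of -0.59 (95% interval -1.06 to -0.12, adjusted p = 0.022). The ASNS call was lost without the filter on low values (adjusted p = 0.0508) and without replicate 1 of Caco-2 co-culture control (adjusted p = 0.0593). DDIT4, the remaining gene, had a log2 difference of 0.71 (95% interval -0.076 to 1.503, adjusted p = 0.090), and it passed the threshold without replicate 3 of either Caco-2 mono-culture group or without replicate 2 of HepG2 mono-culture control, mono-culture with FFAs or co-culture with FFAs (smallest adjusted p = 0.0222).

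**Figure D4:**
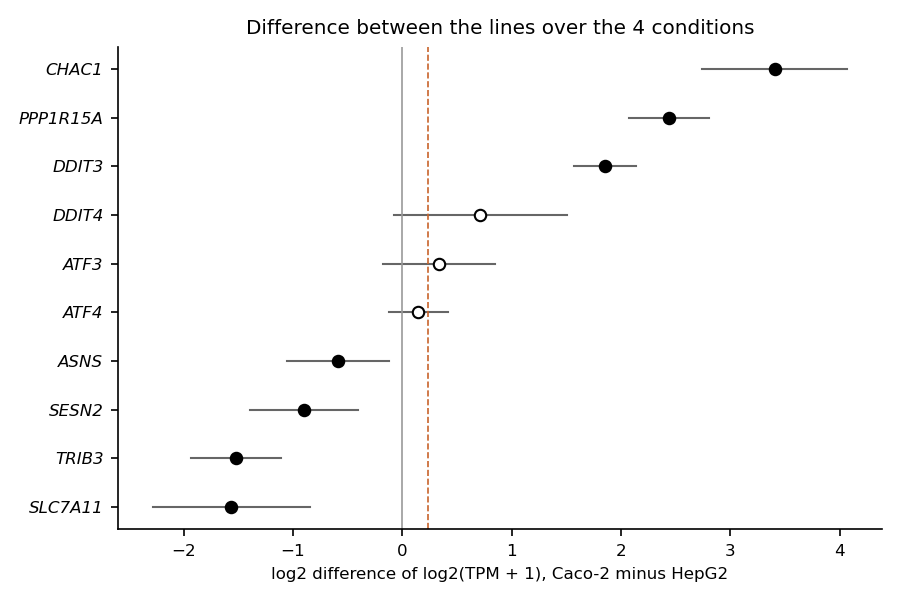
Difference of log2(TPM + 1) between Caco-2 and HepG2 averaged over the 4 conditions, with 95% intervals from limma, filled points for an adjusted p under 0.05, a solid line at 0 and a dashed line at the median of all genes (0.24). CHAC1 (3.41), PPP1R15A (2.44) and DDIT3 (1.86) stand to the right and SLC7A11 (-1.56) and TRIB3 (-1.52) to the left, with ATF4 (0.15) near 0.

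In mono-culture controls alone, 5 of the 10 genes differed between the lines, beside 62.4% of all genes. CHAC1 (log2 difference 3.73), PPP1R15A (2.47) and DDIT3 (1.47) were higher in Caco-2, and SLC7A11 (-1.94) and TRIB3 (-1.42) were lower. The SLC7A11 call was lost when any of 3 libraries was left out, namely replicate 1 or 2 of Caco-2 mono-culture control or replicate 3 of HepG2 mono-culture control, with adjusted p up to 0.0568.

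FFAs were compared with control in each line and culture to see whether the treatment moved the pathway. No gene of the 10 passed an adjusted p of 0.05 in any of these contrasts (limma, all 4 groups of a line in 1 fit). The background was as low: of the 15081 genes tested in Caco-2, 0% were called in mono-culture, 0.0199% (3 genes) in co-culture and 0% averaged over both cultures, and of the 14255 genes tested in HepG2, 0% were called in each. At an unadjusted p under 0.05, the counts over all genes were 393 and 427 in Caco-2 and 319 and 263 in HepG2, in mono-culture and co-culture.

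DDIT3 in mono-cultured Caco-2 cells was the only gene of the 10 with an unadjusted p under 0.05 for FFAs within a culture. It was at 109, 122 and 100 TPM in control and at 163, 144 and 128 TPM with FFAs, so the groups did not overlap, and the log2 difference was 0.39 (95% interval 0.00 to 0.77, limma unadjusted p = 0.048, adjusted p = 1). The share of all genes at that unadjusted threshold was 2.61%. In co-culture DDIT3 was at 142 and 161 TPM in control and at 95.3, 168 and 133 TPM with FFAs, and those groups overlapped. The FFAs change in co-culture minus that in mono-culture was -0.62 on the log2 scale (95% interval -1.196 to -0.044, limma unadjusted p = 0.037, adjusted p = 1), where 1.94% of all genes were at that unadjusted threshold and 0% were called after adjustment. Without both Caco-2 libraries with SPP1 the DDIT3 difference was -0.50. All 10 genes had a lower FFAs change in co-culture than in mono-culture, as did 56.0% of all genes. The median over the 10 genes was -0.53 with all libraries, against -0.028 over all genes, and -0.50 without both libraries with SPP1.

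In Caco-2 mono-culture, 6 of the 10 genes had higher mean log2 levels with FFAs, as did 58.8% of all genes tested. The median log2 difference was 0.30 against 0.029 over all genes. In Caco-2 co-culture, 9 of the 10 genes had lower mean log2 levels with FFAs, as did 50.2% of all genes tested. The median log2 difference in co-culture was -0.31 against -0.0011 over all genes. CHAC1 had the widest difference there at -0.77 (95% interval -2.501 to 0.96), and TRIB3, at 192 and 236 TPM in control and at 95.2, 137 and 232 TPM with FFAs, differed by -0.55 (95% interval -1.203 to 0.093). Replicate 1 of co-culture with FFAs was the lowest Caco-2 library for ATF4, ATF3, DDIT3, TRIB3, CHAC1, SLC7A11, SESN2 and PPP1R15A, and without it the CHAC1 difference was -0.15 and the TRIB3 difference -0.26. That library is one of the 2 with SPP1, whose part in these values was not tested. Without both, 9 of the 10 genes again had lower means, with a median log2 difference of -0.22, CHAC1 at -0.19 and TRIB3 at -0.40. Without replicate 3 of co-culture with FFAs, CHAC1 was at -1.199 and TRIB3 at -0.89. Averaged over both cultures, Caco-2 log2 differences ran from -0.34 for PPP1R15A (95% interval -0.97 to 0.29) to 0.23 for ATF3 (-0.28 without replicate 1 of co-culture control), with TRIB3 at -0.29 (95% interval -0.73 to 0.14) and ATF4 at -0.16 (95% interval -0.46 to 0.14). When single libraries were left out, these averages ran from -0.59 to -0.12 for PPP1R15A, from -0.46 to -0.15 for TRIB3 and from -0.28 to -0.069 for ATF4, each lowest without replicate 3 of co-culture with FFAs. Without both libraries with SPP1, 5 of 10 genes were lower, PPP1R15A was at -0.38, ATF3 at 0.055, TRIB3 at -0.22 and ATF4 at -0.12.
The interval for DDIT4 in mono-culture shows how little could be resolved. DDIT4 was at 123, 116 and 37.0 TPM in control and at 238, 178 and 38.1 TPM with FFAs, a log2 difference of 0.53 (95% interval -0.83 to 1.90) that was -0.020 without replicate 3 of control and 1.34 without replicate 3 of the FFAs group.

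In HepG2, averaged over both cultures, 7 of the 10 genes had lower mean log2 levels with FFAs, as did 47.2% of all genes. ATF4 was at 337, 348 and 264 TPM in mono-culture control and at 159, 292 and 264 TPM with FFAs, and at 379, 361 and 405 TPM in co-culture control and at 189, 355 and 395 TPM with FFAs. Its log2 difference was -0.40 (95% interval -0.82 to 0.02, adjusted p = 1). TRIB3 was at 549, 598 and 455 TPM in mono-culture control and at 215, 387 and 443 TPM with FFAs, which did not overlap, and at 798, 594 and 1125 TPM in co-culture control and at 265, 822 and 819 TPM with FFAs, which did. The averaged log2 difference of TRIB3 was -0.60 (95% interval -1.23 to 0.04, adjusted p = 1).
ASNS differed by -0.45 (95% interval -1.06 to 0.15) and SLC7A11 by -0.57 (95% interval -1.72 to 0.57), with the wider differences in mono-culture, -0.75 for ASNS and -0.90 for SLC7A11. SLC7A11 in mono-culture was at 18.7, 27.8 and 35.0 TPM in control and at 3.75, 18.8 and 32.5 TPM with FFAs, and without replicate 1 of the FFAs group its log2 difference was -0.086. SESN2 differed by -0.40 (95% interval -1.12 to 0.32). Single libraries moved these averages. Without replicate 1 of co-culture with FFAs they were -0.23 for ATF4, -0.33 for TRIB3, -0.19 for SLC7A11 and -0.26 for SESN2. Without replicate 1 of mono-culture with FFAs they were -0.26 for ATF4, -0.23 for ASNS and -0.17 for SLC7A11, and without replicate 3 of that group SLC7A11 was at -0.87 and SESN2 at -0.19. SESN2 was at -0.25 and -0.68 without replicates 2 and 3 of mono-culture control. The mono-culture difference of ASNS was -0.29 without replicate 1 of the FFAs group and -1.19 without replicate 3, and that of SLC7A11 was -1.49 without replicate 3. DDIT4 pointed the other way in HepG2, with an averaged log2 difference of 0.49 (95% interval -0.60 to 1.58; 0.20 to 0.88 without single libraries), and DDIT3, ATF3, CHAC1 and PPP1R15A lay between -0.093 and 0.103 and changed sign when some single libraries were left out.

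**Figure D5:**
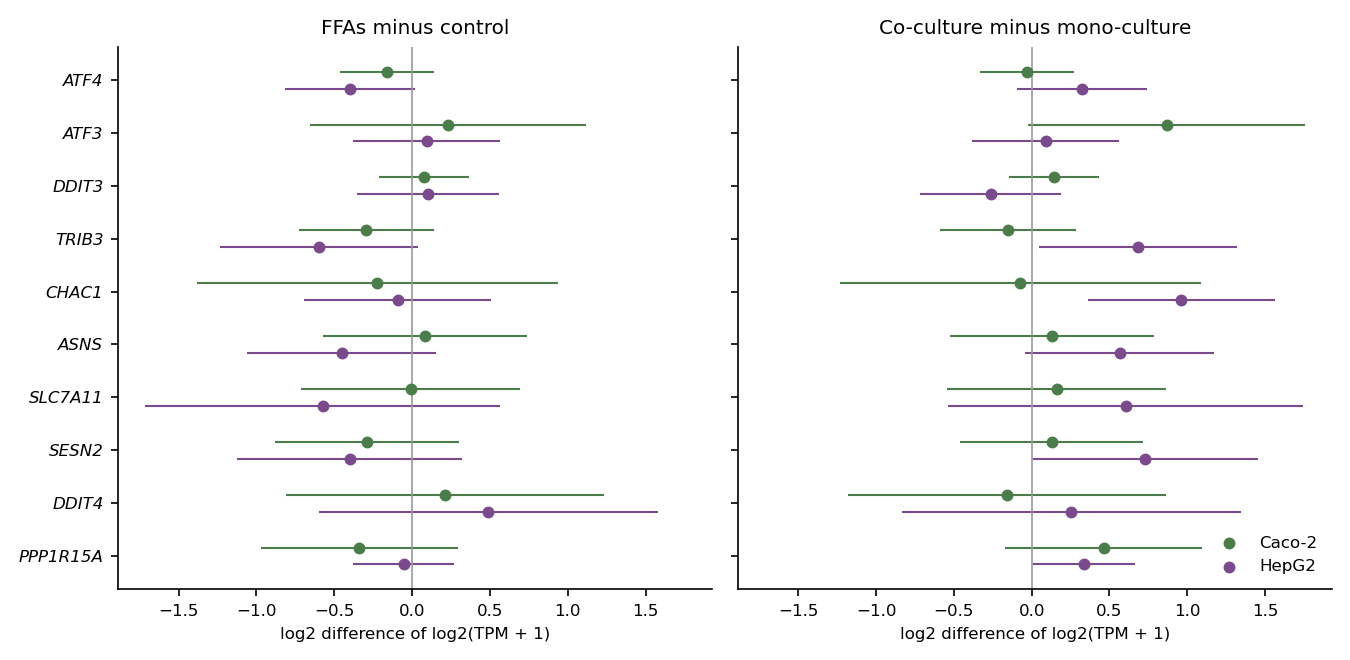
Differences of log2(TPM + 1) for FFAs minus control averaged over both cultures (left) and for co-culture minus mono-culture averaged over both treatments (right), in Caco-2 (green) and HepG2 (purple), with 95% intervals from limma. Each FFAs interval crosses 0, and on the right CHAC1 (0.96), TRIB3 (0.68), SESN2 (0.73) and PPP1R15A (0.34) in HepG2 have intervals above 0 before adjustment for the number of genes.

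Co-culture was compared with mono-culture to see whether the other line in the connected chamber moved the same genes. In HepG2, averaged over both treatments, 9 of the 10 genes had higher mean log2 levels in co-culture, as did 45.6% of all genes, with a median log2 difference of 0.45 against -0.022 over all genes. In the fit without a block, none passed the adjusted threshold, which 0.0561% of the genes tested (8 of 14255) did. At an unadjusted p under 0.05 there were 4 of the 10, all higher, beside 12.5% of all genes in either direction. With replicate number as a block, CHAC1 passed the adjusted threshold and more genes were called, as given in the closing section. The labels do not say that a number pairs libraries.

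CHAC1 in HepG2 was at 1.10, 1.51 and 0.12 TPM in mono-culture control and 0.12, 1.10 and 1.19 TPM in mono-culture with FFAs, and at 1.41, 3.87 and 2.93 TPM in co-culture control and 1.82, 3.44 and 1.87 TPM in co-culture with FFAs. Groups with FFAs did not overlap, and the averaged log2 difference was 0.96 (95% interval 0.36 to 1.56, limma unadjusted p = 0.0045, adjusted p = 0.189). All values were under 4 TPM, and with a pseudocount of 0.1 the averaged difference was 1.79 (adjusted p = 0.255). TRIB3, with the values given above, differed by 0.68 (95% interval 0.05 to 1.32, adjusted p = 0.365).
SESN2 was at 54.5, 58.0 and 16.8 TPM in mono-culture control and 30.2, 43.2 and 14.5 TPM in mono-culture with FFAs, and at 59.9, 56.2 and 63.3 TPM in co-culture control and 32.6, 71.4 and 46.7 TPM in co-culture with FFAs. Both mono-culture libraries under 20 TPM were replicate 3, and the averaged log2 difference was 0.73 (95% interval 0.01 to 1.45, adjusted p = 0.394). PPP1R15A was at 29.6, 33.5 and 32.0 TPM in mono-culture control and at 33.8, 40.2 and 60.6 TPM in co-culture control, which did not overlap, and at 28.0, 39.8 and 32.1 TPM and 30.8, 43.3 and 43.5 TPM in the groups with FFAs, which did. Its averaged log2 difference was 0.34 (95% interval 0.01 to 0.66, adjusted p = 0.383).

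Of the other 6 genes in HepG2, ASNS differed by 0.57 (95% interval -0.04 to 1.17), SLC7A11 by 0.60 (95% interval -0.54 to 1.75) and ATF4 by 0.32 (95% interval -0.09 to 0.74), averaged over both treatments. Without replicate 1 of mono-culture with FFAs these were 0.34 for ASNS, 0.198 for SLC7A11 and 0.19 for ATF4, and without replicate 1 of co-culture with FFAs SLC7A11 was at 0.99 and ATF4 at 0.49. SESN2 was at 0.45 without replicate 3 of mono-culture control and PPP1R15A at 0.22 without replicate 3 of co-culture control. In the groups with FFAs alone, ASNS was at 91.6, 176 and 322 TPM in mono-culture and at 216, 347 and 419 TPM in co-culture, a log2 difference of 0.86 (95% interval 0.00 to 1.72, limma unadjusted p = 0.050, adjusted p = 0.884) that was 0.41 without replicate 1 and 1.31 without replicate 3 of mono-culture with FFAs. DDIT4 differed by 0.26 and ATF3 by 0.091, DDIT4 turning below 0 without replicate 2 of co-culture with FFAs and ATF3 without any of 3 libraries (that one, replicate 3 of co-culture control or replicate 1 of mono-culture with FFAs), and DDIT3 was the 1 gene with a lower mean in co-culture, at -0.26 (95% interval -0.72 to 0.19), or -0.44 without replicate 1 and -0.17 without replicate 2 of mono-culture control. The unadjusted threshold was met by CHAC1 in controls and by CHAC1 and ASNS with FFAs, beside 7.53% and 5.63% of all genes, and no gene of any kind was called in these 2 contrasts (0% in each). The HepG2 marker sum was 40458 to 56338 TPM in co-culture and 51097 to 60697 TPM in mono-culture. In co-culture 8 of 9 tested markers were lower, beside 54.4% of all genes, and none was called. The part of that sum in the CHAC1 and TRIB3 values was not tested.

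In Caco-2 all 10 genes had higher mean log2 levels in co-culture control than in mono-culture control, as did 58.0% of all genes, and 2 of 10, ATF3 and PPP1R15A, did so with FFAs, as did 51.7% of all genes. Without the 2 libraries with SPP1 these counts were 10 and 6. The co-culture control libraries also serve the FFAs contrast in co-culture, so the directions in both contrasts are not independent. With all libraries none of the 10 genes was called, beside 0.0199% of all genes in controls and 0% with FFAs and averaged. DDIT3 was at 109, 122 and 100 TPM in mono-culture control and at 142 and 161 TPM in co-culture control, a log2 difference of 0.46 (95% interval 0.03 to 0.88, limma unadjusted p = 0.040, adjusted p = 0.867), where 5.43% of all genes were at that unadjusted threshold. Without both libraries with SPP1, which leaves 1 library of co-culture control, the DDIT3 difference was 0.55.
ATF3 in Caco-2 was at 10.2 to 16.9 TPM in all 6 mono-culture libraries. In co-culture it was at 11.3 and 49.3 TPM in control and at 10.0, 42.4 and 42.9 TPM with FFAs, so 3 co-culture libraries lay above every mono-culture library and 2 did not. The low ones, at 11.3 and 10.0 TPM, were the 2 libraries with SPP1. The averaged log2 difference was 0.87 (95% interval -0.02 to 1.76, adjusted p = 0.488), 1.37 without replicate 1 and 0.36 without replicate 2 of co-culture control. Without both libraries with SPP1, the ATF3 difference was 1.71 averaged, 1.97 in controls and 1.44 with FFAs. That leaves 1 library in co-culture control and 2 in co-culture with FFAs. The libraries left out, a choice made after seeing the data, were the 2 lowest of co-culture for ATF3, so the larger values are no test of co-culture. PPP1R15A was highest in 2 of the 3 co-culture libraries that were high in ATF3, at 390 and 388 TPM, with the other 9 Caco-2 libraries at 118 to 233 TPM. Its averaged log2 difference was 0.46 (95% interval -0.17 to 1.10, adjusted p = 0.604). It was 0.24 without replicate 2 of co-culture control, 0.22 without replicate 3 of co-culture with FFAs and 0.86 without both libraries with SPP1. All 11 immediate-early and harvest-responsive genes had higher mean log2 levels in Caco-2 co-culture, averaged over both treatments, as did 56.8% of all genes. They were led by DUSP1 (0.82, adjusted p = 0.37) and EGR1 (0.54, adjusted p = 0.41), and none was called. Their summed level was 1127 to 2741 TPM in co-culture against 977 to 1762 TPM in mono-culture. The HepG2 marker sum was also higher, at 3718 to 5050 TPM in Caco-2 co-culture and 2632 to 4198 TPM in mono-culture. Of 9 tested markers 8 were higher, again beside 56.8% of all genes, and none was called. The part of both gene sets and of the libraries with SPP1 in the ATF3 and PPP1R15A values was not tested.

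Groups of the 10 genes that did not overlap were few. In Caco-2 there were 2 of 10 for FFAs in mono-culture (ATF3 and DDIT3, higher), beside 7.13% of all genes, and 1 for FFAs in co-culture (SESN2, lower), beside 17.2%. For co-culture there were 2 in controls (DDIT3 and SESN2, higher), beside 23.1%, and 0 with FFAs, beside 9.32%. In HepG2 there was 1 for FFAs in mono-culture (TRIB3, lower), beside 6.47%, and 0 in co-culture, beside 5.42%. For co-culture there were 2 in controls (ATF4 and PPP1R15A, higher), beside 14.9%, and 1 with FFAs (CHAC1, higher), beside 9.60%.

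With all libraries, neither change differed between the lines for any of the 10 genes after adjustment. For the FFAs change, 0.0182% of the 16495 genes were called as different between the lines, and the 10 genes had differences of -0.28 to 0.57 on the log2 scale. For the co-culture change, 0.533% of all genes were called. TRIB3 had the only unadjusted p under 0.05, with a co-culture change in Caco-2 minus that in HepG2 of -0.84 (95% interval -1.65 to -0.02, limma unadjusted p = 0.046, adjusted p = 0.330), beside 14.6% of all genes. The difference for CHAC1 was -1.03 (95% interval -2.36 to 0.29), or -1.86 with a pseudocount of 0.1 (95% interval -3.69 to -0.028, adjusted p = 0.343). Without the 2 Caco-2 libraries with SPP1, the lowest of Caco-2 co-culture for ATF3, the difference of co-culture changes was 1.62 for ATF3 (0.78 with all libraries). It was then -0.61 for TRIB3 and -0.70 for CHAC1.

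By the criteria of the study's methods, a one-way analysis of variance over the 4 groups of a line with an unadjusted p under 0.05 and at least a 1.2-fold difference between some pair of group means, none of the 10 genes was called in either line. All genes above 0 TPM in a library were counted there: 3.08% of 31100 met the criteria in Caco-2 and 3.56% of 29942 in HepG2. Without the 2 Caco-2 libraries with SPP1, the widest log2 difference between group means of ATF3 in Caco-2 was 1.97 (1.10 with all libraries).

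The genes varied together across libraries without being 1 block. Of the 45 pairs among them, 39 in Caco-2 and 40 in HepG2 had a positive Pearson r of log2(TPM + 1), with a median r of 0.41 over 11 libraries and 0.48 over 12. The libraries share groups, replicate numbers and scaling, and r is given as a description. In HepG2, ATF4 and TRIB3 were the most alike (r = 0.95), followed by ASNS and SLC7A11 (r = 0.92). In Caco-2, CHAC1 was most like SESN2 (r = 0.92) and DDIT4 (r = 0.90), while ASNS and DDIT4 were the most unlike (r = -0.64).
Outside the 10, the genes whose log2 levels were most like the mean standardised level of the 10, leaving out genes whose mean was under 5 TPM, were in Caco-2 (10827 candidates, 11 libraries) DAB2 (r = 0.96), AJUBA (r = 0.94), TUBE1 (r = 0.93), JDP2 (r = 0.93) and FOXQ1 (r = 0.91). In HepG2 (10225 candidates, 12 libraries) they were BAMBI (r = 0.98), CEBPB (r = 0.97), STC2 (r = 0.96), APOL6 (r = 0.96) and ERRFI1 (r = 0.96). JDP2, CEBPB and STC2 also stood on the list of other ATF4-linked genes used below.

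The rest of the pathway was described by 6 lists. No gene of any of them was called for FFAs or co-culture in either line. In HepG2 co-culture against mono-culture, averaged over both treatments, 8 of 8 amino acid transporters had higher mean log2 levels, and their median log2 difference was 0.41. SLC1A4 (0.41, adjusted p = 0.29) and SLC38A1 (0.41, adjusted p = 0.34), carriers of neutral amino acids, had the smallest p there. All 10 aminoacyl-tRNA synthetases, which load tRNAs with amino acids, were higher too, with a median of 0.40, and NARS1 (0.32, adjusted p = 0.19) and TARS1 (0.41, adjusted p = 0.23) led.
Of the ATF4-linked transcription factors and secreted targets, 10 of 11 tested were higher with a median log2 difference of 0.54, led by VLDLR, a lipoprotein receptor (0.74, adjusted p = 0.30), and CEBPG, a dimer partner of ATF4 (0.54, adjusted p = 0.30). FGF21, the twelfth gene of that list, was under the filter, at 0 to 1.05 TPM. Of the amino acid and one-carbon enzymes, 8 of 9 were higher with a median of 0.25, and the exception, ALDH18A1 of proline synthesis, had the smallest p (-0.39, adjusted p = 0.13), followed by PYCR1 (0.21, adjusted p = 0.20). The median over all genes was -0.022 in this contrast, and 45.6% of all genes were higher.

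Genes of the other arms of the unfolded protein response, mainly chaperones of the endoplasmic reticulum, lay near 0 in the same contrast, with a median log2 difference of 0.054 and XBP1 (0.27, adjusted p = 0.19) and HYOU1 (0.21, adjusted p = 0.27) leading. The eIF2alpha kinases, phosphatase subunit and eIF2B genes had a median of 0.068, led by EIF2AK1 (-0.25, adjusted p = 0.29) and EIF2S1 (0.34, adjusted p = 0.34). With FFAs in HepG2, averaged over both cultures, 11 of 11 ATF4-linked genes (median log2 difference -0.40, led by VLDLR at -0.50 and JDP2 at -0.68), 8 of 8 transporters (median -0.28, led by SLC1A4 at -0.25 and SLC38A2 at -0.32), 9 of 10 synthetases (median -0.22, led by TARS1 at -0.28 and NARS1 at -0.18) and 8 of 9 enzymes (median -0.28) had lower mean levels, each with an adjusted p of 1. Of all genes, 47.2% had lower mean levels in that contrast. Among the enzymes the smallest p belonged to ALDH18A1 (0.19) and CTH (-0.58). In Caco-2 the ATF4-linked genes, transporters and synthetases had medians of -0.063, -0.023 and 0.010 for FFAs, averaged over both cultures. They were led by ATF5 (0.27) and JDP2 (-0.16), by SLC1A4 (0.19) and SLC3A2 (-0.11), and by TARS1 (-0.094) and AARS1 (0.080), each with an adjusted p of 0.99. The averages join opposite directions. In mono-culture, 10 of 11, 7 of 8 and 10 of 10 had higher mean levels with FFAs, as did 58.8% of all genes. In co-culture, 9 of 11, 7 of 8 and 8 of 10 had lower mean levels with FFAs, as did 50.2% of all genes. For co-culture in Caco-2 the medians were 0.13, -0.087 and -0.086, and all 10 synthetases had lower mean levels there, as did 43.2% of all genes. GDF15 (0.72, adjusted p = 0.45), SLC7A5 (-0.38, adjusted p = 0.31) and TARS1 (-0.17, adjusted p = 0.50) had the smallest p of the 3 lists, followed in each by NUPR1 (0.53), SLC1A4 (0.20) and IARS1 (-0.19). The FFAs and co-culture contrasts of a line use the same libraries and are not independent.

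Between the lines, averaged over the 4 conditions, where 79.0% of all genes were called, 5 of the 6 lists had calls in both directions and 1 in only 1 direction. Of the 9 amino acid and one-carbon enzymes, 6 were called lower in Caco-2 and none higher: PSAT1 of serine synthesis (-2.56), GPT2 (-1.71), PYCR1 (-1.44), CTH (-1.44), ALDH18A1 (-0.54) and PSPH (-0.37). Of the 8 transporters, SLC1A4 (-2.32), SLC6A9 (-0.996), SLC38A2 (-0.94) and SLC7A5 (-0.35) were called lower and SLC38A1 (1.204) and SLC3A2 (1.04), the heavy chain that pairs with SLC7A11, higher.
Of the synthetases, NARS1 (-1.28), YARS1 (-0.86), IARS1 (-0.80), SARS1 (-0.55) and WARS1 (-0.48) were called lower and AARS1 (0.88), EPRS1 (0.57) and TARS1 (0.57) higher. Of the ATF4-linked genes, NUPR1 (-2.52), TNFRSF10B (-1.44), GDF15 (-1.32) and VLDLR (-0.51) were called lower and JDP2 (1.76), CEBPG (0.51), STC2 (0.51) and ATF5 (0.33) higher. The calls on eIF2alpha kinases, phosphatase subunit and eIF2B were 5 higher, DELE1 (1.12), EIF2B1 (0.70), PPP1R15B (0.48), EIF2AK3 (0.25) and EIF2B5 (0.14), and 4 lower, OMA1 (-1.01), EIF2AK4 (-0.83), EIF2B3 (-0.65) and EIF2B4 (-0.35). Of the other arms of the unfolded protein response, HSPA5 (-0.67), PDIA4 (-0.61), XBP1 (-0.38) and EDEM1 (-0.26) were called lower and SDF2L1 (0.55), HERPUD1 (0.29), DNAJC3 (0.22) and HYOU1 (0.12) higher. EIF2B5, DNAJC3 and HYOU1 were above 0 but below the median difference of all genes, 0.24.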

How the data were processed

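The authors deposited 1 table of TPM for each of the 23 libraries (SMART-seq v4, Nextera, NovaSeq). According to the methods, reads of rRNA, tRNA and mitochondria were removed with Bowtie 2.1.0, STAR 2.7.1a mapped the others to GRCh38 and RSEM 1.3.0 gave the TPM. TPM hold no counts, so depth per library is unknown and no count model was used. The labels give medium with 0.5% FBS during treatment, and the methods give medium without serum. The labels' extraction text names myoblasts, while the samples are labelled Caco-2 and HepG2, and the markers of both lines were therefore checked. Groups and replicate numbers came from the labels.

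TPM were analysed as log2(TPM + 1) with limma 3.58.1 in R 4.3.3 (eBayes with trend, two-sided), keeping genes whose mean reached 1 TPM in some group, Benjamini-Hochberg adjusted at 0.05 over all genes tested. Within a line, the 4 groups were fitted together. Between lines, all 8 groups were. The test was checked on simulated data. Tables and plots used Python 3.11.15, numpy 2.4.6, pandas 2.3.3 and matplotlib 3.10.9. Coordinates came from GENCODE v44 and promoter windows from RefSeq, both on GRCh38. The members and lists were chosen with earlier results of these data known. All 10 members are named. In a contrast described for a list, each list gene past the adjusted threshold is named, or else the 2 with the smallest p. The 5 genes most alike per line are named. Alternatives were another pseudocount, 2 other filters, 2 scalings, no trend, only the groups compared, a replicate block and leaving out each library. Leaving out both replicate 1 libraries of Caco-2 co-culture was added after seeing the data.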

Additional observations from a re-analysis of the deposited data

How the results depend on the processing

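TPM carry no depth, groups hold 2 or 3 libraries, and the wide intervals of SLC7A11, CHAC1 and DDIT4 limit what could be resolved. Between the lines averaged over the 4 conditions, the count of 7 members was 6 without the filter and 8 with the replicate block, and 7 to 8 when single libraries were left out. In mono-culture controls, 5 became 6 with median-of-ratios scaling or the block, 7 with quantile normalization, and 4 to 6 without single libraries. With median-of-ratios scaling ATF4 turned from 0.15 to -0.076, and DDIT4 for FFAs in Caco-2 mono-culture ranged from -0.020 to 1.34 without single libraries. Without single libraries the sign also turned for small log2 differences. For FFAs averaged over cultures, ATF3 in Caco-2 ranged from -0.28 to 0.74, and in HepG2 CHAC1 from -0.27 to 0.063, DDIT3 from -0.071 to 0.20, ATF3 from -0.028 to 0.24 and PPP1R15A from -0.14 to 0.062. For co-culture in HepG2, ATF3 ranged from -0.042 to 0.24 and DDIT4 from -0.032 to 0.65. Members called within lines stayed at 0 under each alternative fit with limma except the block, with the fit without the 2 Caco-2 libraries with SPP1 set aside. That fit was chosen after seeing the data, leaves 1 library of co-culture control and takes out the 2 lowest Caco-2 co-culture libraries for ATF3. Only effect sizes are given for it. By the analysis of variance, 1 member (CHAC1) met the criteria in HepG2 with quantile normalization, and 0 to 1 did in each line when single libraries were left out (TRIB3 in Caco-2, and CHAC1, TRIB3 or ASNS in HepG2). CHAC1 was under the filter of 5 TPM in HepG2.

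With replicate number as a block, 1 member was called in HepG2 co-culture against mono-culture, averaged (CHAC1, adjusted p = 0.046), and 1 in HepG2 by the analysis of variance (CHAC1). No other call within lines changed. The calls over all genes there went from 8 to 492. The labels do not say that a number pairs libraries. Deviations from group means of same-numbered libraries correlated at -0.093 to 0.31 in Caco-2 (7 of 15 pairs over 0.1) and at 0.028 to 0.60 in HepG2 (15 of 18). The median r was 0.088 for same and -0.12 for different numbers in Caco-2, and 0.30 and -0.23 in HepG2. In Caco-2 7 of 11 libraries and in HepG2 10 of 12 were most like those of their own number.

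Counts over all genes moved more. For FFAs and for the difference of FFAs effects within a line they were 0 to 24 under all alternatives. For co-culture they were 0 to 24 in each line, except 60 in Caco-2 and 492 in HepG2 with the block, averaged. The line difference of the co-culture change went from 88 to between 33 and 344, and that of the FFAs change from 3 to between 1 and 19. With an adjusted p in the analysis of variance, 957 and 1066 genes became 9 and 1, and with the block the HepG2 count was 1661.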
